A study of Mus musculus with 4 samples.

Results

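The genes described here are 6 members of the DM-domain family of transcription factors, *Dmrt1*, *Dmrtb1*, *Dmrtc2*, *Dmrta1*, *Dmrt2* and *Dmrt3*. They were chosen by gene symbol from the 54920 genes with a read count. RNA had been sequenced from ID4-EGFP+ cells, sorted by flow cytometry from testes at postnatal day 8. Every mouse had been given 4-OHT, the active form of tamoxifen, on postnatal days 1 to 3. Control mice (2 libraries, labelled wild-type) carried the Cnot3flox/flox alleles and *Id4-eGfp*, and *Cnot3*-cKO mice (2 libraries) carried these together with *Ddx4*-creER. *Ddx4*-creER is active in germ cells, so somatic cells that enter the sort keep *Cnot3*. *Id4-eGfp* marks cells enriched for spermatogonial stem cells. The comparison asks how transcript levels differ in these cells after loss of CNOT3, a subunit of the CCR4-NOT complex that removes poly(A) tails from mRNA. The study describes its libraries as biological replicates and gives more of them per group than were analysed here. The labels do not say how many mice went into each library, so the p-values given measure the spread between these libraries.

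DM-domain proteins bind DNA through a zinc-binding module first described in sex-determining genes of flies and worms. In the mouse testis, DMRT1 is present in spermatogonia and in Sertoli cells. In spermatogonia it holds back entry into meiosis, in part by repressing *Stra8*, and in Sertoli cells it maintains male fate. The product of *Dmrtb1*, also known as DMRT6, appears in differentiating spermatogonia and helps to end the spermatogonial programme at the switch to meiosis. The product of *Dmrtc2*, also known as DMRT7, is required in pachytene spermatocytes. *Dmrt2* and *Dmrt3* are best known from somite and spinal cord development. *Dmrta1* is the least studied of these genes in the testis.

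The stretch that encodes the zinc-binding module is what the 6 genes share, and it is shown for each of them as read from the coding sequence of the GENCODE M21 transcript with the longest coding sequence. Each stretch covers 90 bases on the coding strand, 5′ to 3′. Capitals mark every codon for cysteine and histidine. Residues of these 2 kinds bind zinc in this module, at 8 positions. The stretches were found by a pattern that requires the residues there, so all 6 share these positions by the search itself.
Dmrt1: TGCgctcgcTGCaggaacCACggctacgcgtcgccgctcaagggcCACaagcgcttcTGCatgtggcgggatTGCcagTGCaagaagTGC
Dmrtb1: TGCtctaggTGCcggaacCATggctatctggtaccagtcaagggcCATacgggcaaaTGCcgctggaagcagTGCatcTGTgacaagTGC
Dmrtc2: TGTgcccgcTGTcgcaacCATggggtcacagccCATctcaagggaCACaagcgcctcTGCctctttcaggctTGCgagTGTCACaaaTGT
Dmrta1: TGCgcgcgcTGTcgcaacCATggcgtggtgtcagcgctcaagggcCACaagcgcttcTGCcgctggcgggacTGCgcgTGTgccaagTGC
Dmrt2: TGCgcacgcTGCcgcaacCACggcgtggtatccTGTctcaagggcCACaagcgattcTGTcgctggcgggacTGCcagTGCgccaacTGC
Dmrt3: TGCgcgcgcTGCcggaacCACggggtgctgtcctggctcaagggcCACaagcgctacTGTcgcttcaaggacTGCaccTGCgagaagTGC
The *Dmrt1*, *Dmrtb1*, *Dmrta1* and *Dmrt3* stretches hold 8 such codons, *Dmrt2* holds 9 and *Dmrtc2* holds 10. The additional codons of *Dmrt2* and *Dmrtc2* lie outside the shared positions. Between any 2 of the 6 stretches, 56.7% to 84.4% of bases were identical, with *Dmrtb1* and *Dmrtc2* the least alike pair and *Dmrta1* and *Dmrt2* the most alike. Over whole transcripts, the longest run of identical bases shared by any 2 of the 6 genes was 26, between *Dmrt1* and *Dmrta1*. No annotated gene of GENCODE M21 overlaps any of the 6 loci.

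*Dmrt1*, *Dmrt3* and *Dmrt2* form a cluster on the forward strand of chromosome 19 (GRCm38, the assembly also called mm10), within 173374 bases. *Dmrt1* runs from 25505618 to 25604329, *Dmrt3* from 25610301 to 25623921 and *Dmrt2* from 25672411 to 25678991. *Dmrtb1* lies on the reverse strand of chromosome 4 from 107676290 to 107684230. *Dmrta1* lies on the forward strand of chromosome 4 from 89679436 to 89694772. *Dmrtc2* lies on the forward strand of chromosome 7 from 24870057 to 24877651. All 6 are annotated as protein-coding.

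The libraries held from 22192964 to 43378493 counted reads, and both *Cnot3*-cKO libraries were smaller than both controls. *Cnot3* itself had 58.6 and 50.2 CPM (read counts scaled to a common library total, with TMM factors) in controls against 19.2 and 19.9 CPM in *Cnot3*-cKO cells, a log2 fold change of -1.48 (SE 0.13, adjusted p = 1.48e-05). Among marker lists, the summed level of 10 pan-germ cell genes was 6955 and 7395 CPM in controls against 5939 and 6308 CPM in *Cnot3*-cKO cells. No gene of this list was called, whereas markers of somatic cells were. The *Cnot3*-cKO pair lay below the control pair in 6 of the 10 genes and above it in 2. *Tex15* (log2 fold change -0.57, adjusted p = 5.41e-04), *Piwil2* (-0.44, adjusted p = 0.00128) and *Sall4* (-0.42, adjusted p = 0.00656) missed only the fold change limit. The 18 Sertoli cell genes summed to 498 and 503 CPM in controls and to 1558 and 1569 CPM in *Cnot3*-cKO cells, and 17 of them were called higher. Of 9 macrophage genes 8 were called higher (3 without control replicate 2, 5 without *Cnot3*-cKO replicate 1), with sums of 271 and 178 CPM against 598 and 486 CPM. Of 5 tested Leydig cell genes 4 were called higher, while *Insl3* had 0 reads in every library. Of 6 tested endothelial genes 2 were called higher, and of 5 peritubular myoid genes 0 were called. In sorted bulk cells, a different number of cells of a type and a different amount of RNA per cell cannot be told apart. The part of these somatic transcripts in the results on DM-domain genes was not tested.

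A gene was called where its adjusted p (edgeR quasi-likelihood, Benjamini-Hochberg) was under 0.01 and its fold change over 2. By this rule 2 of the 6 genes were called, beside 4.76% of all 23952 tested genes. *Dmrtb1* fell and *Dmrta1* rose in *Cnot3*-cKO cells, while *Dmrt1*, *Dmrtc2*, *Dmrt2* and *Dmrt3* did not pass. Of all tested genes 4.03% were called higher and 0.735% lower, so 1 of 6 in each direction stands on small numbers. With no limit on the fold change, the same 2 members passed, beside 10.9% of all tested genes (4.7% lower). All 6 genes passed the filter on low counts. For each of the 6 the *Cnot3*-cKO and control libraries did not overlap, with the *Cnot3*-cKO pair above the control pair in 3 and below it in 3. Over all tested genes 30.5% were placed above and 28.7% below, so separation of the groups was common. With 2 libraries in each group the smallest p of an exact two-sided permutation test on 1 gene is 0.333, and every adjusted p here rests on dispersions fitted across genes.

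*Dmrt1* was by far the most abundant of the 6 genes. Its level, divided by exon length, was 144 and 170 CPM per kb in controls against 119 and 126 CPM per kb in *Cnot3*-cKO cells. In controls this placed *Dmrt1* above 99.3% of the 23345 tested genes with a known length. Its reads, 15097 and 18595 in controls against 7007 and 9397 in *Cnot3*-cKO cells, made up 85.9% to 89.7% of all reads of the 6 genes in a library.

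*Dmrtb1* came next, with 10.6 and 18.6 CPM per kb in controls, above 81.7% of tested genes. *Dmrt3* (2.77 and 2.37 CPM per kb), *Dmrt2* (2.39 and 2.32) and *Dmrtc2* (1.65 and 2.90) followed in controls, and their ranges overlapped, so these 3 genes could not be ordered. *Dmrta1* was lowest, at 1.39 and 1.41 CPM per kb. In *Cnot3*-cKO cells the order below *Dmrt1* was different. *Dmrta1*, at 5.17 and 4.56 CPM per kb, overlapped *Dmrtb1* at 4.68 and 5.36, and both lay above *Dmrtc2*, *Dmrt2* and *Dmrt3*.

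**Figure D1:**
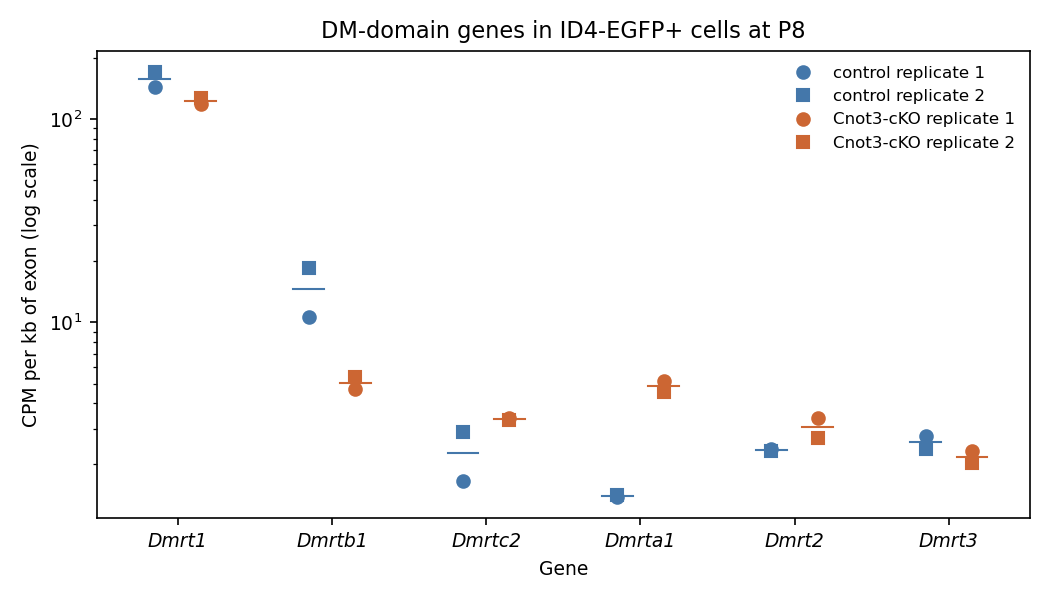
Level of each DM-domain gene in CPM per kb of exon on a log axis, with 1 point per library and a bar at the mean of each group of 2. *Dmrt1* lies above 100 in every library, *Dmrtb1* drops from a mean of 14.6 to 5.02, and *Dmrta1* climbs from 1.40 to 4.87.

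*Dmrtb1*, the DM-domain gene of differentiating spermatogonia, fell. It had 892 and 1629 reads in controls, or 22.1 and 38.7 CPM, and 221 and 320 reads in *Cnot3*-cKO cells, or 9.74 and 11.2 CPM. The controls were further apart than the *Cnot3*-cKO libraries, with control replicate 2 at 1.75 times control replicate 1, yet the lower control was still well above both *Cnot3*-cKO libraries. The mean was 30.4 ± 11.7 CPM in controls (SD, n = 2) and 10.45 ± 1.002 CPM in *Cnot3*-cKO cells (SD, n = 2), 0.344 of the control level. The log2 fold change was -1.54 (SE 0.23, 95% interval -2.03 to -1.04, adjusted p = 6.13e-04), the 240th lowest of the tested genes. The size rests on which control is used: leaving out control replicate 1 gave -1.90, leaving out control replicate 2 gave -1.09, and the call was kept in both.

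*Dmrta1* rose by the largest fold of the 6. It had 235 and 249 reads in controls, or 5.83 and 5.91 CPM, and 492 and 549 reads in *Cnot3*-cKO cells, or 21.7 and 19.1 CPM. Here both pairs of libraries lay close together, and the smaller *Cnot3*-cKO libraries held more *Dmrta1* reads than the larger controls before any scaling. The mean was 5.87 ± 0.0599 CPM in controls (SD, n = 2) and 20.4 ± 1.80 CPM in *Cnot3*-cKO cells (SD, n = 2), 3.48 times the control level. The log2 fold change was 1.80 (SE 0.18, 95% interval 1.41 to 2.18, adjusted p = 3.47e-05), the 656th highest of the tested genes. Leaving out 1 library at a time gave 1.70 to 1.88. Under glmTreat, which tests whether the change exceeds 2-fold, neither *Dmrta1* (adjusted p = 0.0122) nor *Dmrtb1* (adjusted p = 0.203) was called.

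*Dmrt1*, the repressor of meiotic entry, had 374 and 442 CPM in controls against 309 and 328 CPM in *Cnot3*-cKO cells. Both *Cnot3*-cKO libraries lay below both controls, at 0.780 of the control mean. The log2 fold change was -0.36 (SE 0.09, 95% interval -0.56 to -0.16, adjusted p = 0.0153), which did not pass. The interval excludes a change of 2-fold in either direction. An adjusted p under 0.01 was reached under DESeq2 (0.00325, with or without a prior), with a replicate block (0.00326), with robust dispersions (0.00806), with no filter (7.39e-05) and without control replicate 1 (5.22e-09), always with a fold change under 2. Set against the pan-germ cell list, of which the sum was itself lower in *Cnot3*-cKO cells, the difference was smaller. *Dmrt1* had 5.38 and 5.97 CPM per 100 CPM of the pan-germ cell list in controls against 5.20 and 5.19 in *Cnot3*-cKO cells. With libraries scaled to that list, which raised the all-gene median to 0.24, the log2 fold change was -0.13 (adjusted p = 0.426). *Dmrt1* per 100 CPM of the Sertoli cell list was 75.3 and 87.8 in controls against 19.8 and 20.9 in *Cnot3*-cKO cells.

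*Dmrtc2*, the DM-domain gene of pachytene spermatocytes, had 108 and 198 reads in controls against 125 and 153 in *Cnot3*-cKO cells. This was 2.68 and 4.70 CPM in controls against 5.51 and 5.34 CPM in *Cnot3*-cKO cells. Control replicate 2 lay closer to the *Cnot3*-cKO libraries than to the other control. The log2 fold change was 0.55 (SE 0.29, 95% interval -0.08 to 1.18, adjusted p = 0.212), and it moved from 0.19 without control replicate 1 to 1.004 without control replicate 2. *Dmrtc2* and *Dmrtb1* shared the gap between the controls, with control replicate 2 at 1.755 and 1.749 times control replicate 1. A list of 8 pachytene spermatocyte genes summed to 67.1 and 72.5 CPM in controls against 82.6 and 76.7 CPM in *Cnot3*-cKO cells. Of these genes 2 were called higher, beside 4.03% of all tested genes. They were *Ldhc* and *Meiob*, with low control means of 1.69 and 2.88 CPM. The other 6 were not called, and the list median was 0.25 on the log2 fold change scale.

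*Dmrt2* had 225 and 228 reads in controls against 180 in each *Cnot3*-cKO library, or 5.58 and 5.41 CPM against 7.93 and 6.28 CPM. Its log2 fold change was 0.37 (SE 0.22, 95% interval -0.12 to 0.86, adjusted p = 0.292). *Dmrt3* had 273 and 244 reads in controls against 129 and 142 in *Cnot3*-cKO cells, or 6.77 and 5.79 CPM against 5.69 and 4.95 CPM. Its log2 fold change was -0.24 (SE 0.23, 95% interval -0.74 to 0.26, adjusted p = 0.522). For both genes the intervals exclude a change of 2-fold but allow smaller ones.

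**Figure D2:**
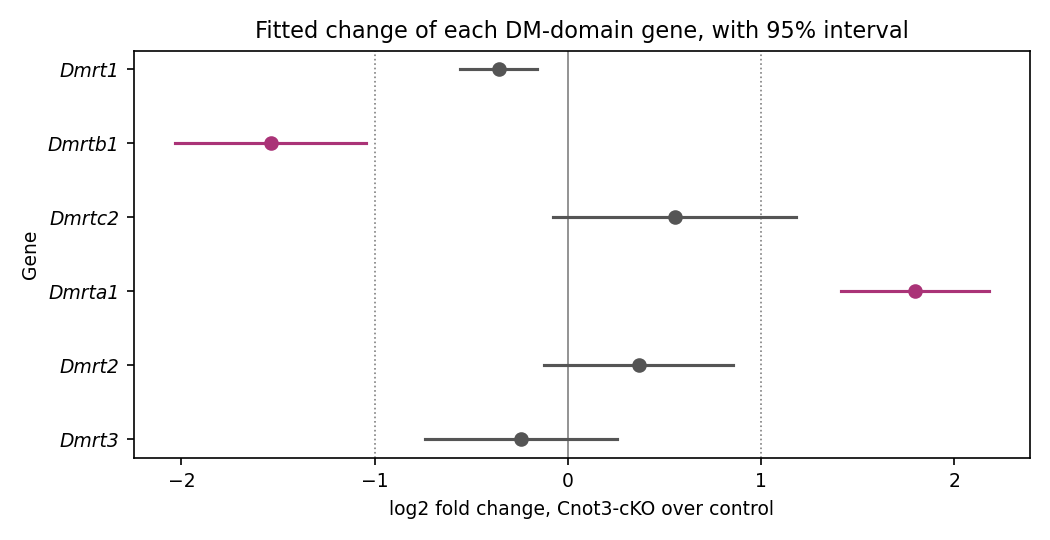
Fitted log2 fold change of each DM-domain gene (points) with its 95% interval (lines). The dotted lines mark a 2-fold change. *Dmrtb1* (-1.54) and *Dmrta1* (1.80) lie beyond them with their whole intervals, and the other 4 genes were not called.

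None of the 3 genes of the chromosome 19 cluster was called, and a difference between them was not tested. *Dmrt1* and *Dmrt3*, 5972 bases apart, had negative values (-0.36 and -0.24), and *Dmrt2* had a positive one (0.37). The 95% intervals of *Dmrt3* and *Dmrt2* include 0 and overlap. The nearest protein-coding genes outside the cluster were not called. *Kank1* lies 71122 bases from *Dmrt1* (log2 fold change 0.11, adjusted p = 0.598), and *Smarca2* lies 926059 bases from *Dmrt2* (0.31, adjusted p = 0.0683). *Dmrtb1* lies between *Glis1*, 41229 bases away (-0.01, adjusted p = 0.981), and *Lrp8*, 118031 bases away, which encodes a lipoprotein receptor. *Lrp8* had 33.8 ± 2.98 CPM in controls against 17.2 ± 2.01 CPM in *Cnot3*-cKO cells (SD, n = 2 per group) and missed the fold change limit (log2 fold change -0.97, adjusted p = 6.62e-04), which it passed with no filter (-1.002), under DESeq2 without a prior (-1.001), without control replicate 1 (-1.08) and without *Cnot3*-cKO replicate 2 (-1.11). *Dmrta1* lies between *Cdkn2b*, 368397 bases away (-0.11, adjusted p = 0.842), and *Zfp352*, 524048 bases away, which had 0 reads in every library. *Dmrtc2* lies 116 bases from *Lypd4* (1.13, adjusted p = 0.351), which had under 1 CPM, and 6720 bases from the ribosomal protein gene *Rps19* (-0.19, adjusted p = 0.233). No neighbour of a member was called.

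Of the other family genes, 0 of 5 were called. *Dmrta2*, best known from forebrain development, had 29 and 28 reads in controls against 0 and 8 in *Cnot3*-cKO cells (adjusted p = 0.121). It was called lower when *Cnot3*-cKO replicate 2 was left out, where the remaining *Cnot3*-cKO library had 0 reads. *Dmrtc1a*, *Dmrtc1b*, *Dmrtc1c1* and *Dmrtc1c2* were under 2 CPM in controls, with log2 fold changes from 0.21 to 1.21, and the zinc-binding pattern shown above was not found in their coding sequences. *Dmrtc1c1* and *Dmrtc1c2* share a run of 1611 identical bases, so reads cannot be divided between them with certainty.

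The genes around the meiotic entry switch give the setting of these values. Of 16 tested genes of meiotic entry and early prophase, 0 were called higher and 2 lower, and the median log2 fold change was 0.03, against 0.01 over all tested genes. The 2 genes called lower both act at entry. *Stra8*, the retinoic acid-induced gatekeeper of meiosis, had 87.0 and 113 CPM in controls against 37.5 and 48.2 CPM in *Cnot3*-cKO cells (log2 fold change -1.22, SE 0.14, adjusted p = 1.30e-04). *Meioc*, which stabilizes the meiotic programme together with YTHDC2, had 94.7 and 151 CPM in controls against 43.1 and 59.3 CPM in *Cnot3*-cKO cells (-1.26, SE 0.19, adjusted p = 6.92e-04). In both genes the *Cnot3*-cKO libraries lay below the lower control. *Gm4969*, the symbol in these files for *Meiosin*, the partner of *Stra8*, was not called (-0.34, adjusted p = 0.0916) and was named after its value was seen.

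The 3 most abundant genes of the list, which encode structural proteins of meiotic chromosomes, were not called. *Stag3*, a meiotic cohesin subunit, had 540 and 558 CPM in controls against 631 and 623 CPM in *Cnot3*-cKO cells (log2 fold change 0.19, adjusted p = 0.0870). *Sycp1*, a component of the synaptonemal complex, had 495 and 530 CPM against 570 and 592 CPM (0.18, adjusted p = 0.117). *Smc1b*, another cohesin subunit, had 428 and 442 CPM against 619 and 670 CPM (0.57, adjusted p = 3.50e-04), short of the fold change limit.

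Promoters of *Stra8*, *Meioc*, *Kit* and *Rarg*, which fell, and of *Sohlh1* were searched beside those of the members. *Stra8*, which DMRT1 is known to repress, is shown because its window alone among these held the letters searched for. The sequence covers chr6:34920698-34920997 of GRCm38.p6 on the forward strand, from 250 bases before to 50 bases after the start annotated in RefSeq. Capitals mark TACANTGT, the core of the element that DMRT1 prefers, searched on both strands.
Stra8: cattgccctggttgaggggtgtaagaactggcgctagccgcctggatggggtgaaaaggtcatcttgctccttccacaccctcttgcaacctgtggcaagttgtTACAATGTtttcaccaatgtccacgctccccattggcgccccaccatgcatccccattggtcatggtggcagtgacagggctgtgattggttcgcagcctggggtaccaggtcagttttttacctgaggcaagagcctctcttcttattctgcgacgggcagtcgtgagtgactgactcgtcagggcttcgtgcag
The match begins 146 bases before the start. The windows of *Meioc*, *Kit* (2 starts), *Rarg* (2 starts) and *Sohlh1* hold none. Of all 32851 promoters of this length, 2.69% hold a match on either strand. Of the members, *Dmrtb1* (2 starts), *Dmrtc2*, *Dmrta1*, *Dmrt2* and *Dmrt3* had a promoter in the table, and none of these windows holds the letters. *Dmrt1* had no entry. A match describes the sequence and was not tested for binding.

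Of 12 genes of spermatogonial differentiation, 0 were called higher and 6 lower. The list median was -0.85 on the log2 fold change scale. *Kit*, the receptor that marks differentiating spermatogonia, had 255 and 277 CPM in controls against 119 and 137 CPM in *Cnot3*-cKO cells (log2 fold change -1.05, adjusted p = 1.70e-05). *Lin28a*, an RNA-binding protein of progenitors, had 420 and 409 CPM against 199 and 191 CPM (-1.09, adjusted p = 3.85e-06). *Neurog3*, a progenitor transcription factor, had 8.04 and 7.43 CPM against 2.51 and 1.92 CPM (-1.81, adjusted p = 4.46e-04). *Rarg*, the retinoic acid receptor of progenitors, had 39.0 and 42.6 CPM against 15.7 and 15.9 CPM (-1.37, adjusted p = 3.14e-05). *Sox3* and *Nanos3* were the other 2 called lower. *Uhrf1*, a maintenance factor of DNA methylation, had 266 and 276 CPM against 255 and 266 CPM (-0.06, adjusted p = 0.687). *Sohlh1*, a target of DM-domain factors in spermatogonia, was named after its value was seen, with 109 and 146 CPM against 109 and 116 CPM (-0.18, adjusted p = 0.359), where the groups overlapped. With libraries scaled to the pan-germ cell list, *Stra8* (-0.99) fell short of the fold change limit. Of the 12 differentiation genes, 2 in place of 6 were then called lower, with *Kit* (-0.83) and *Lin28a* (-0.86) among those no longer called. *Kit* did so too with library size only (-0.99) and without *Cnot3*-cKO replicate 1 (-0.96). *Meioc* lost its call without control replicate 2 (-0.89), with robust dispersions (adjusted p = 0.0935) and under DESeq2 with a prior (-0.95).

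*Dmrtb1* kept a similar proportion to *Stra8* and *Meioc*, the 2 meiotic entry genes called lower in these same data. The other 14 tested genes of that list were not called. A similar proportion therefore follows in part from how the 2 genes were picked, and shared control was not tested. There were 25.4 and 34.3 *Dmrtb1* reads per 100 *Stra8* reads in controls against 25.9 and 23.2 in *Cnot3*-cKO cells, so the groups overlapped. Per 100 *Meioc* reads the values were 23.4 and 25.6 in controls against 22.6 and 18.8 in *Cnot3*-cKO cells, close to each other but not overlapping. Per 100 *Kit* reads they were 8.67 and 14.0 in controls against 8.19 and 8.12 in *Cnot3*-cKO cells, where both *Cnot3*-cKO libraries lay below both controls. Control replicate 2 was higher than control replicate 1 in *Dmrtb1* (1.75 times), *Meioc* (1.595 times) and *Stra8* (1.30 times), and nearly level in *Kit* (1.09 times).

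Against the whole differentiation list, which also holds genes that did not move, *Dmrtb1* was lower in *Cnot3*-cKO cells. It had 1.20 and 2.03 CPM per 100 CPM of that list in controls against 0.725 and 0.834 in *Cnot3*-cKO cells. Against the pan-germ cell list it had 0.318 and 0.523 CPM per 100 CPM in controls against 0.164 and 0.177 in *Cnot3*-cKO cells.

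*Dmrta1* rose a little more than the summed Sertoli cell genes. It had 1.17 and 1.18 CPM per 100 CPM of the Sertoli cell list in controls against 1.39 and 1.22 in *Cnot3*-cKO cells. Against the pan-germ cell list the same gene had 0.0838 and 0.0800 CPM per 100 CPM in controls against 0.365 and 0.303 in *Cnot3*-cKO cells. Against the macrophage list it had 2.15 and 3.33 in controls against 3.62 and 3.94 in *Cnot3*-cKO cells, and against the Leydig cell list 1.59 and 1.83 in controls against 2.61 and 2.14 in *Cnot3*-cKO cells. These counts do not show which cells held the *Dmrta1* transcripts.

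**Figure D3:**
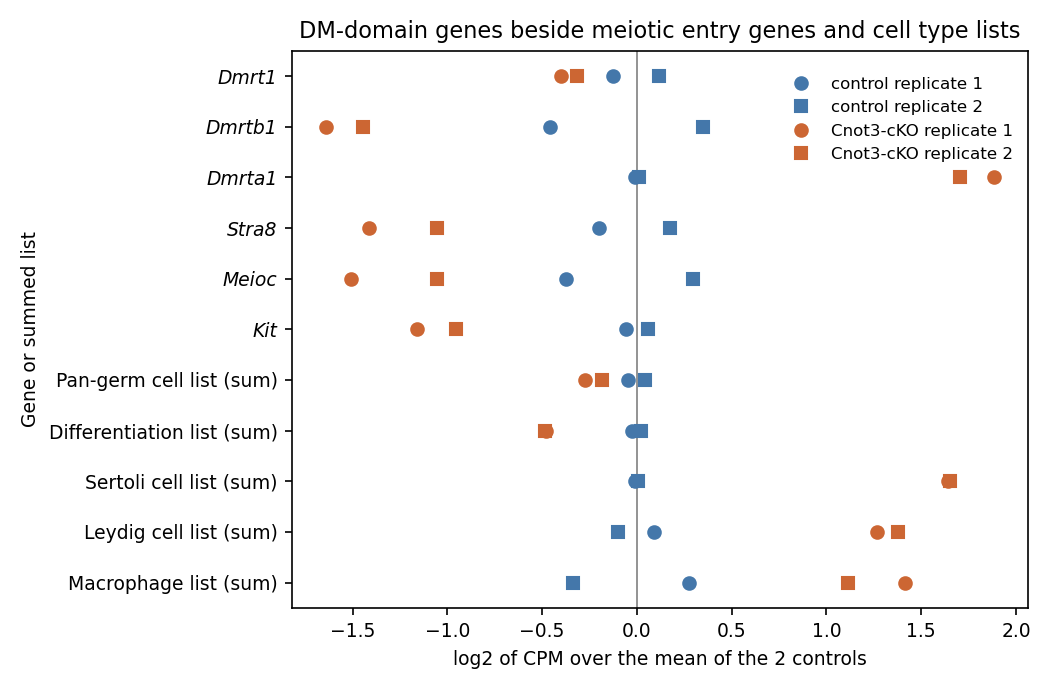
Level in each library relative to the mean of the 2 controls (log2 scale) for 3 DM-domain genes, 3 genes of meiotic entry and differentiation, and the summed CPM of 5 gene lists. *Dmrtb1* lies on the left with *Stra8*, *Meioc* and *Kit*, which were called lower in these same data. *Dmrta1* lies on the right with the Sertoli, Leydig and macrophage sums.

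Genes of undifferentiated spermatogonia did not fall as a group. Of 14 tested, 2 were called higher and 0 lower. The list median was 0.38 on the log2 fold change scale. *Id4*, the gene behind the reporter, had 20.6 and 19.7 CPM in controls against 36.2 and 46.3 CPM in *Cnot3*-cKO cells (1.04, adjusted p = 4.05e-04), and *Eomes*, a marker of a stem cell subset, had 2.65 and 2.40 CPM against 5.33 and 7.84 CPM (1.39, adjusted p = 0.00357). Without *Cnot3*-cKO replicate 2 neither gene was called (*Id4* 0.84, *Eomes* 1.07), and *Id4* also lost its call without control replicate 2 (0.99). Of the 3 most abundant genes of the list, *Zbtb16* had 435 and 364 CPM against 242 and 211 CPM (-0.82, adjusted p = 1.93e-04), under the fold change limit, and *Taf4b* (0.22, adjusted p = 0.0757) and *Ret* (0.15, adjusted p = 0.279) were not called.

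DMRT1 limits the response of spermatogonia to retinoic acid, and of 18 genes for handling this signal 3 were called higher and 1 lower. The list median was -0.28 on the log2 fold change scale. *Aldh1a1*, a retinoic acid-synthesizing enzyme found in Sertoli cells, had 191 and 162 CPM in controls against 519 and 495 CPM in *Cnot3*-cKO cells (1.53, adjusted p = 1.28e-06). *Stra6*, a retinol transporter, had 1.29 and 1.66 CPM against 5.77 and 5.20 CPM (1.89, adjusted p = 7.51e-04). *Dhrs3*, which turns retinal back to retinol, had 11.7 and 10.7 CPM against 26.2 and 21.7 CPM (1.09, adjusted p = 6.47e-04). The gene called lower was *Rarg*, described above. *Rxra*, a partner receptor, had a log2 fold change of -0.72 (adjusted p = 4.99e-04) and *Crabp1*, a retinoic acid-binding protein, had -0.77 (adjusted p = 0.00190), both short of the fold change limit. Any gene called higher rose in the *Cnot3*-cKO group by definition. The Sertoli, Leydig and macrophage sums, from lists not picked by call, were also higher in that group. Which cells held the transcripts of these 3 genes was not tested.

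In the gonadal soma DMRT1 keeps ovarian fate genes silent. Of 8 tested ovarian fate genes, 0 were called higher and 1 lower. The list median was 0.50 on the log2 fold change scale. *Foxl2*, the central ovarian factor, had 2 and 0 reads in controls against 6 and 2 in *Cnot3*-cKO cells and was too low to test. *Rspo1*, a WNT agonist of the early ovary, had 3.57 and 5.08 CPM in controls against 1.90 and 1.25 CPM in *Cnot3*-cKO cells (-1.47, adjusted p = 0.00781). Its call was lost without control replicate 2 (-1.20), without *Cnot3*-cKO replicate 2 (-1.20), after thinning (-1.43), with upper quartile scaling (-1.42), with library size only (-1.40) and with the pan-germ cell list scaling (-1.23). *Fst* (0.75, adjusted p = 0.00125) and *Esr1* (-0.44, adjusted p = 0.0868) were not called. *Bmp2*, a signalling ligand (1.10, adjusted p = 0.0129), and *Runx1*, a transcription factor (1.003, adjusted p = 0.0238), missed only the limit on the adjusted p, and in each the *Cnot3*-cKO pair lay above the control pair. Ovarian fate genes called higher numbered 1 with library size only, robust dispersions, no filter, no fold change limit, a minimum mean count of 50, or without *Cnot3*-cKO replicate 1. They numbered 2 with the pan-germ cell list scaling, an adjusted p under 0.05, the replicate block or without control replicate 1.

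**Figure D4:**
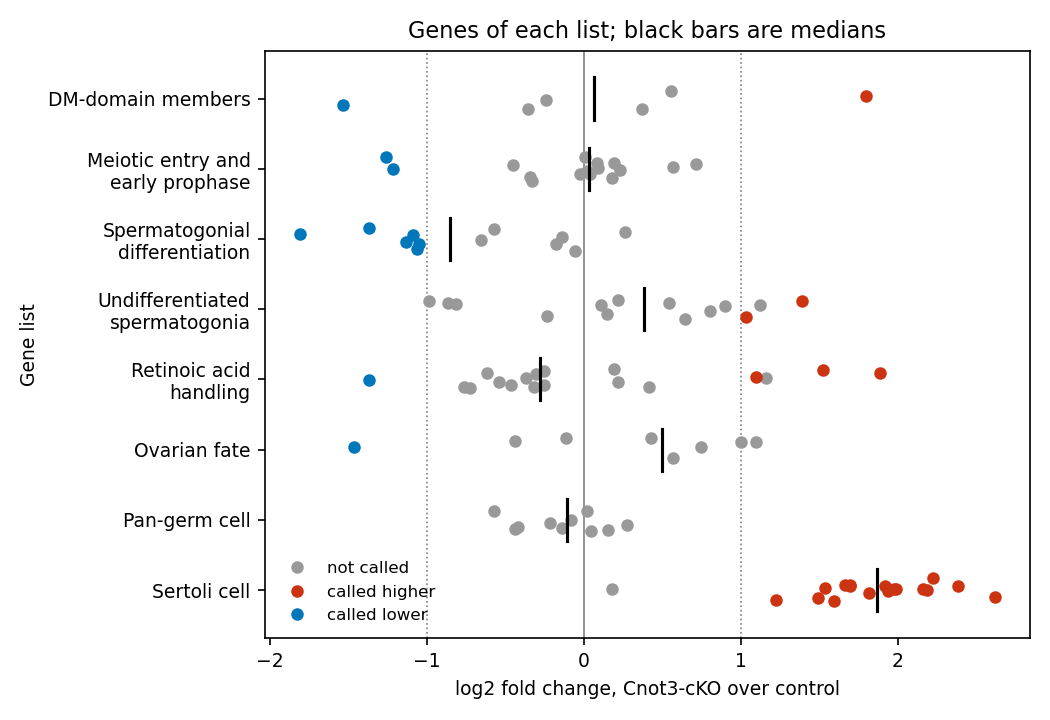
Log2 fold change of every tested gene in 8 lists (points, coloured by call), with the list median as a black bar and dotted lines at a 2-fold change. The DM-domain genes spread from -1.54 to 1.80, the differentiation list lies mostly to the left of 0 (median -0.85), and 17 of 18 Sertoli cell genes are called higher (median 1.87).

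The genes most like each member across the 4 libraries were found by the Euclidean distance between log2 CPM values centred on each gene's mean. Nearest to *Dmrta1* was *Gstm1*, a glutathione transferase, at a distance of 0.0540, followed by *Ubash3a* and *Ptpn7*. *Gstm1* had a log2 fold change of 1.76 (adjusted p = 8.71e-07), and 59 genes lay within 0.2 of *Dmrta1*. *Dmrtb1* had few close neighbours. Its nearest genes were *Gm15549* (distance 0.199), *Btg1c* (0.204) and *Draxin* (0.252), each under 3 CPM in controls, and 1 gene lay within 0.2. Near *Dmrt1* were *Gm15097*, *Tapt1* and *Ell*, near *Dmrtc2* were *H3c4*, *Gm24629* and *Ky*, near *Dmrt2* were *Rilpl1*, *Sh2d1b2* and *Habp4*, and near *Dmrt3* were *AI506816*, *Ncoa6* and *Il18bp*. With 4 libraries in 2 groups such distances largely describe the difference between groups, and within 0.2 of *Dmrt1* and *Dmrt3* lay 1559 and 1000 genes.

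CCR4-NOT is brought to many mRNAs by proteins that bind their 3′ UTRs, so these regions were read for 2 well-known elements on the coding strand. TGTANATA, the Pumilio element, was in none of the 6 3′ UTRs, which are 267 to 2495 bases long, and was in 21.6% of the 20566 genes with a 3′ UTR. TATTTAT, a core of AU-rich elements, was in 25.5% of genes and in 1 member, *Dmrtc2*, from base 72 to base 78 of its 3′ UTR. It is shown with its flanks, with the element in capitals.
Dmrtc2: atttggtatttTATTTATggttttgcatg
*Dmrta1*, the member that rose, has the longest 3′ UTR, at 2495 bases, and *Dmrtb1*, the member that fell, has one of 713 bases. Neither holds either element.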

How the data were processed

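The members and lists were chosen with earlier results of these data known. In the processing by the authors, reads with mean Phred scores under 20 were dropped, STAR placed the rest on mm10, and featureCounts assigned them to GENCODE M24 genes. The deposited values are these whole-number read counts, not normalized, for TruSeq Stranded Total RNA libraries. Strand and multi-mapping options are not given in the sources used here.

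Counts of 2 control and 2 *Cnot3*-cKO libraries were fitted with edgeR 4.0.16 in R 4.3.3, with TMM scaling, the default expression filter, no covariates and the quasi-likelihood F test. Benjamini-Hochberg adjustment covered all 23952 tested genes. SEs and 95% intervals come from the F statistic. CPM used TMM-scaled totals, and CPM per kb used merged exon lengths of GENCODE M21. Replicates differed by more than sampling noise (chi-square per degree of freedom 22.9 and 6.97). Counts under 3 reads are at the floor of detection. The procedure was tested on simulated data.

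Named genes were the members, other family genes, *Cnot3*, the nearest protein-coding gene on each side, 3 genes of most similar pattern per member, and in each list the called genes (at most 4, by p) and the 3 most abundant. *Sox3* and *Nanos3*, *Ldhc* and *Meiob*, *Insl3*, *Foxl2*, *Bmp2* and *Runx1* were named outside this rule after their values were seen. So were *Tex15*, *Piwil2*, *Sall4*, *Clu* and *Ctsl*. Promoters came from RefSeq (GRCm38.p6), with 5 of 6 members matched. Protein sequences were not used here. Alternatives were other scalings and filters, robust dispersions, DESeq2 1.42.0, glmTreat, other thresholds, a replicate block, thinning and leaving out each library. Leaving out a library leaves 1 in its group, so no spread is measured within that group. Single-cell data of the study were not analysed here. Plots were made with matplotlib 3.10.9 under Python 3.11.15.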

Additional observations from a re-analysis of the deposited data

How the results depend on the processing

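*Dmrtb1* stayed called lower and *Dmrta1* higher under 17 of 18 alternatives each, with log2 fold changes from -1.90 to -1.09 and from 1.62 to 2.03. The exception was glmTreat, a test against a fold change of 2 that asks for more by construction. It called 0 members higher and 0 lower, with *Dmrtb1* at -1.54, *Dmrta1* at 1.80 and *Cnot3* at -1.48 (adjusted p = 0.0346), and left 87 genes higher and 5 lower of 965 and 176. Leaving out 1 library at a time gave 1 member called higher and 1 lower throughout, with log2 fold changes from -1.90 to -1.09 for *Dmrtb1*, 1.70 to 1.88 for *Dmrta1*, -0.49 to -0.25 for *Dmrt1*, 0.19 to 1.004 for *Dmrtc2*, 0.18 to 0.52 for *Dmrt2*, -0.36 to -0.14 for *Dmrt3* and -1.59 to -1.38 for *Cnot3*. *Dmrt1*, *Dmrtc2*, *Dmrt2* and *Dmrt3* were not called under any alternative and kept their signs.

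Scaling to the pan-germ cell list raised the all-gene median to 0.24 and called 1497 genes higher and 72 lower, so that 95.4% of called genes were higher in place of 84.6%. Under it *Uhrf1* (0.17), *Sohlh1* (0.055), *Glis1* (0.22), *Rps19* (0.0442), *Cdkn2b* (0.12), *AI506816* (0.00211) and *Ncoa6* (0.0068) turned positive, each below that shift. *Uhrf1* also turned positive with library size only (0.0091). *Glis1*, near 0, did so with upper quartile scaling (0.031), library size only (0.055), a mean count of at least 50 (0.021) and thinning (0.0016). With 1 library left out, *Glis1* ranged from -0.21 to 0.19, *Sohlh1* from -0.39 to 0.039, *Cdkn2b* from -0.33 to 0.13, *Dmrtc1c1* from -0.49 to 0.65 and *Dmrtc1c2* from -0.20 to 0.54, none of them called. No filter gave 285 genes lower, an adjusted p under 0.05 gave 1452 higher and 284 lower, and no fold change limit gave 1488 and 1125.

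The replicate numbers pair libraries by number alone, and deviations of same-numbered libraries correlated by 0.0224. Under the replicate block 1155 and 217 genes passed in the higher and lower direction, *Dmrtb1* was at -1.50 and *Dmrta1* at 1.80, and no call among the members changed. Of the 4 uncalled members, *Dmrtc2*, *Dmrt2* and *Dmrt3* had 108 to 273 reads per library. For every shift given here the cause was not tested.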
